A study of Mus musculus with 6 samples.

Results

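The clustered protocadherins were taken from the FPKM table by their symbols, as every row named Pcdha, Pcdhb, Pcdhga, Pcdhgb or Pcdhgc followed by a number, or by the letter c in the alpha cluster. This gave 61 of 24083 rows. They were 14 alpha members (Pcdha1 to Pcdha12, Pcdhac1 and Pcdhac2), 22 beta members and 22 gamma members, plus Pcdha4-g, Pcdha6-g and Pcdha7-g. Those 3 rows begin with the letters of the alpha cluster, but RefSeq GRCm38.p6 gives their names as synonyms of read-through models that start in the alpha cluster and end with the gamma cluster. They are described apart as alpha-gamma models. With them the letters of the alpha cluster match 17 rows.

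Clustered protocadherins are cell-surface adhesion molecules, best known from neurons, where the combination that a cell makes gives it a surface identity used in self-avoidance and synapse formation. Each alpha and gamma gene consists of its own variable exon, with its own promoter, spliced to constant exons that the whole cluster shares. Beta genes are single-exon genes with no shared constant exon. CTCF and cohesin loop the variable promoters to distal enhancers, while DNA methylation, for which DNMT3B is a main enzyme, and SMCHD1 hold promoters silent. The last genes of the alpha and gamma clusters, called C-type, are regulated apart from the others, and Pcdhgc3 among them is the member most widely expressed outside neurons.

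The libraries held polyadenylated RNA of mouse embryonic stem cells, 3 from cells labelled wild type (WT) and 3 from cells labelled Nanog R153A, in which arginine at the named residue of the pluripotency factor NANOG is replaced by alanine. Both groups were grown on gelatin in serum medium with LIF, with no treatment. How R153A was introduced, whether a group is 1 clone and whether its libraries came from separate cultures were not given in the sources used here, so p-values measure only the spread between these libraries. The series asks how expression differs between the 2 forms of Nanog.

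Values are FPKM, the fragments of a gene divided by its length and by the library total. Each library's FPKM summed to between 360152 and 382086, and the depth is unknown because no counts were used here. Hmgcs1, a housekeeping gene of sterol synthesis, was listed at 0 in 6 of 6 libraries, so a 0 may stand for an estimate that failed. The test was limma on log2(FPKM + 1), a scale that understates the change of low genes, for the 11817 genes with at least 1 FPKM in at least 3 libraries. A gene was called at a Benjamini-Hochberg adjusted p under 0.05 over all of these. By this rule 37.5% of all genes tested were called higher in R153A and 22.3% lower. The higher genes made up 62.7% of calls, against 50.6% under median-ratio scaling and 47.4% under quantile normalization. Nanog mRNA was listed at 241, 259 and 258 FPKM in WT against 119, 122 and 129 in R153A (log2 fold change -1.03, limma adjusted p = 2.5e-08). Wdr5, which encodes a scaffold subunit of COMPASS methyltransferases, was listed at 64.0, 64.7 and 67.1 FPKM in WT against 42.2, 40.9 and 42.8 in R153A (log2 fold change -0.63, limma adjusted p = 5.9e-07). A substitution of 1 residue is not visible in FPKM, so these levels do not check the labels.

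The gamma rows stood far above the alpha and beta rows. All 22 gamma members and the 3 alpha-gamma models lay between 3.57 and 11.3 FPKM in every library. As gamma genes share constant exons and beta genes do not, a gamma value is not the level of that member alone. No alpha member exceeded 0.212 FPKM and no beta member exceeded 0.177 FPKM in any library. The filter of 1 FPKM therefore passed 22 of 22 gamma members and 3 of 3 alpha-gamma models, and 0 of 14 alpha and 0 of 22 beta members. No coordinates are given, because the values rest on the mouse build mm9 and the annotation used here is of GRCm38. In RefSeq GRCm38.p6 the clusters lie on chromosome 18 in the order alpha, beta, gamma, with Slc25a2 and Taf7 between beta and gamma.

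How far members could be told apart was read from GENCODE M21 transcripts of GRCm38, cut into all windows of 50 bases. A transcript was found for 14 of 14 alpha, 22 of 22 beta and 21 of 22 gamma members, Pcdhgb8 being the exception. In gamma, 2067 windows stood in every matched model and made up 41.1% to 44.8% of a model. In alpha, 2811 windows stood in every model and made up 48.1% to 54.5% of it. No window stood in every beta model. The share of a beta model's windows that stood in any other member was 4.26% at the median and 12.0% at most. Alpha models, and likewise gamma models, thus hold sequence in common. That their rows hold fragments in common is read from values that lie close together after multiplication by length, given below. The 22 gamma rows are therefore not 22 observations. Only the beta genes are counted as separate ones, and Pcdhgc3 is set against the other gamma rows.

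All 22 gamma rows were called higher in R153A, with means about 2-fold higher, beside 37.5% of all genes tested. Since the rows share fragments, this is a rise of their shared signal. A rise of each member's own exon is not shown by it. The 21 members other than Pcdhgc3 lay between 3.57 and 4.60 FPKM in the WT libraries and between 7.47 and 8.62 in the R153A libraries, so the groups were apart for each of them. Among all genes tested 39.8% were apart in that direction. Their ratios of mean FPKM ran from 1.94 for Pcdhga12 to 2.07 for Pcdhga11, with a median of 2.01. The median log2 fold change of the 22 was 0.86, against 0.07 for all genes tested. In this bulk RNA, more cells with gamma transcripts and more transcripts per cell cannot be told apart.

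Pcdhga12, the last A-type gene, was listed at 3.77, 4.10 and 4.28 FPKM in WT against 7.96, 7.78 and 7.84 in R153A. The log2 fold change came to 0.81 (SE 0.0677, limma adjusted p = 1.6e-06). Pcdhga11 was listed at 3.83, 4.25 and 4.32 FPKM in WT against 8.54, 8.51 and 8.62 in R153A (log2 fold change 0.90, SE 0.0669, limma adjusted p = 6.5e-07). These are the ends of the range for the 21, whose SEs ran from 0.0665 to 0.0686. Pcdhgb8, a B-type gene, stood in the middle with 3.85, 4.16 and 4.44 FPKM in WT and 8.30, 8.17 and 8.42 in R153A.

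Among the C-type members, Pcdhgc4, an isoform needed for neuronal survival, was the lowest gamma row by FPKM in every library. Its FPKM values were 3.57, 3.82 and 4.02 across the WT libraries, against 7.68, 7.47 and 7.73 across the R153A libraries. Its matched model has 5024 bases, where the gamma models run from 4661 to 5080. After multiplication by length, Pcdhgc4 was lowest only in R153A replicate 2. In the other libraries Pcdhgb6 or Pcdhga9 was lower, so the rank by FPKM does not make Pcdhgc4 the least expressed member. Pcdhgc5 was listed at 3.801, 4.21 and 4.33 FPKM in WT against 8.39, 8.25 and 8.54 in R153A. WT replicate 1 was the lowest library for every gamma member. The log2 fold changes of Pcdhgc4 and Pcdhgc5 were 0.85 and 0.88, within the range of the A-type and B-type rows, with which they share fragments.

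The alpha-gamma models lay among the gamma rows. Pcdha4-g was listed at 3.801, 4.11 and 4.33 FPKM in WT against 8.18, 8.05 and 8.23 in R153A. Pcdha6-g and Pcdha7-g were nearly equal to it, with a coefficient of variation over the 3 models between 0.293% and 0.354% in each library. Their log2 fold changes were 0.85 in each case (limma adjusted p from 1.06e-06 to 1.09e-06). Their levels were those of the gamma rows and far above the 14 alpha rows, so they say nothing separate about alpha transcription.

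**Figure D1:**
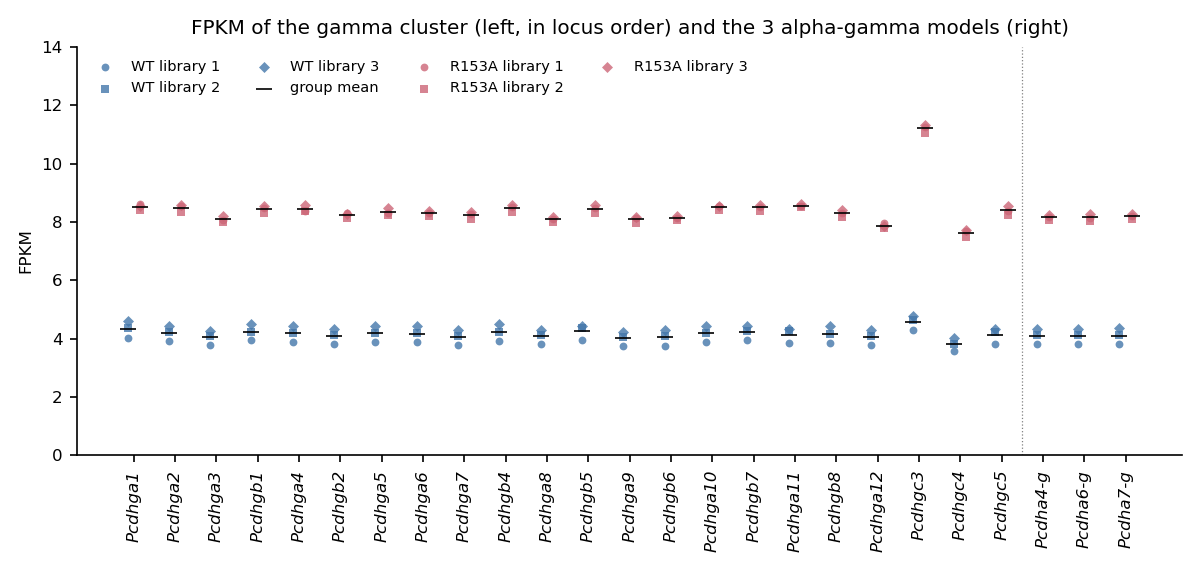
FPKM (vertical axis, linear) of the 22 gamma members in their order along the chromosome and of the 3 alpha-gamma models, with 1 point per library and a bar at each group mean. The R153A points of all rows lie above the WT points, near 8 against near 4 FPKM, and Pcdhgc3 is set apart in R153A at 11.1 to 11.3.

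Pcdhgc3 was the exception within the cluster. It was listed at 4.297, 4.63 and 4.76 FPKM in WT against 11.3, 11.1 and 11.3 in R153A, a 2.46-fold higher mean (log2 fold change 1.14, SE 0.0634, limma adjusted p = 6.6e-08). It was the highest gamma row in each of the 6 libraries, but only slightly so in WT. Divided by the median of the other 21 gamma rows of the same library, Pcdhgc3 stood at 1.12, 1.10 and 1.08 in WT and at 1.35, 1.34 and 1.34 in R153A. The R153A ratios lay above all WT ratios. This quantity is unchanged by a factor applied to a whole library, as in median-ratio or TPM scaling. Quantile normalization is not such a factor. On the log2 scale the ratio was 0.14 ± 0.0254 in WT and 0.43 ± 0.00968 in R153A (SD, n = 3), a difference of 0.29 with an exact two-sided permutation p of 0.1. That is the smallest p that 3 against 3 libraries allow, and it does not pass the threshold. The difference was 0.29 against the lowest other gamma row and 0.30 against the alpha-gamma models.

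FPKM multiplied by transcript length in kilobases, called FPM here, stands for the fragments assigned to a row. In FPM the gamma rows other than Pcdhgc3 lay closer together within a library than in FPKM. The median of the other gamma rows was 19.6 ± 1.24 FPM in WT and 39.4 ± 0.546 in R153A (SD, n = 3), a ratio of 2.01. The lowest of them was 17.6, 19.1 and 20.0 FPM in the WT libraries and 38.1, 37.5 and 38.4 in the R153A libraries. Pcdhgc3 exceeded that lowest row by 2.54, 2.62 and 2.29 FPM in WT and by 14.6, 14.3 and 14.7 in R153A. This excess was 2.48 ± 0.169 FPM in WT and 14.6 ± 0.200 in R153A. In R153A replicate 1 the other 20 rows with a length spanned 38.1 to 40.6 FPM, while Pcdhgc3 stood at 52.8. How the deposited values assigned fragments of shared exons is not given in the sources used here.

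**Figure D2:**
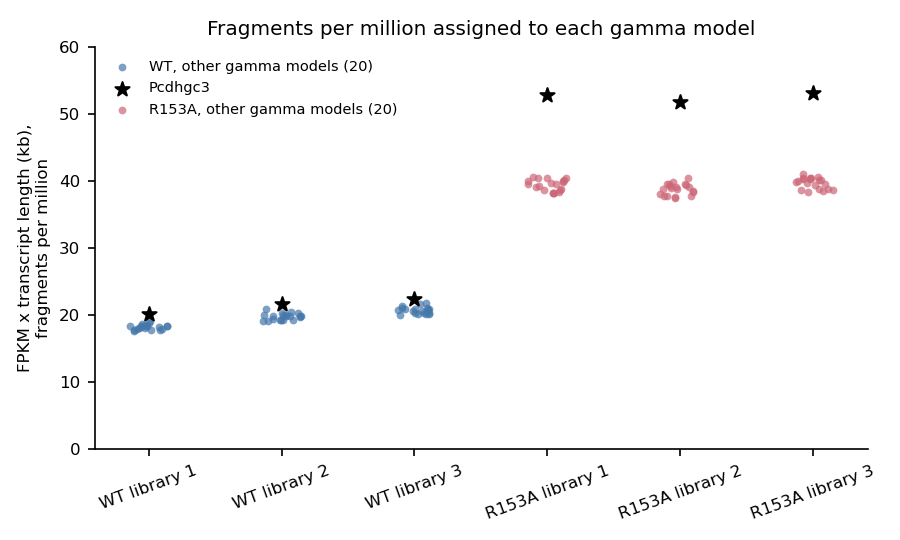
FPKM multiplied by transcript length in kilobases (FPM, vertical axis, linear, from 0), for each gamma model in each of the 6 libraries, where stars are Pcdhgc3 and small points the 20 other models with a known length, spread sideways for sight only. The star lies at the edge of the points in WT and 13.0 to 13.2 FPM above their median in R153A.

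The alpha cluster was close to silent in WT and low in R153A, where each of its rows was higher. As these rows share constant exons, a rise of each member's own exon is not shown by this. Pcdha12 was listed at 0.0157, 0 and 0.0175 FPKM in WT against 0.142, 0.212 and 0.132 in R153A. Pcdha1, at the start of the cluster, was listed at 0.0211, 0.00926 and 0.0175 FPKM in WT against 0.125, 0.173 and 0.124 in R153A. Pcdhac2, the C-type gene at its end, was listed at 0.0152, 0 and 0.0262 FPKM in WT against 0.136, 0.202 and 0.120 in R153A. In all 3 the groups were apart, and R153A replicate 2 was the highest library.

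The same held for the rest of the cluster. For 14 of 14 alpha rows the 3 R153A values lay above the 3 WT values. Of the 8145 genes above 0 somewhere and under 1 FPKM in every library 22.5% did so. The 14 rows share exons and are not 14 observations. WT values ran from 0 to 0.0263 FPKM and R153A values from 0.106 to 0.212. WT replicate 2 was listed at 0 for every alpha member but Pcdha1 and Pcdha9. Among the others, Pcdha10 was listed at 0.107, 0.201 and 0.149 FPKM in R153A and Pcdha6 at 0.113, 0.174 and 0.161. The summed FPKM of the 14 rows was 0.238, 0.0296 and 0.269 in WT and 1.65, 2.55 and 1.82 in R153A. The mean sum was 11.2 times higher in R153A, 6.75 times under quantile normalization. That sum counts fragments of the shared exons once per row. In FPM the alpha rows of a library were close to one another, from 0.570 to 0.802 in R153A replicate 1 and from 0.910 to 1.19 in R153A replicate 2.

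With a filter of 0.1 FPKM and a pseudocount of 0.1, 14 of 14 alpha members were called higher, beside 35.9% of the 15459 genes tested in that fit. Their log2 fold changes on that scale ran from 1.01 for Pcdha9 to 1.23 for Pcdha12, with limma adjusted p from 0.00349 to 0.00896. With the pseudocount of 1 and the same filter 14 of 14 were also called higher, beside 35.8% of all genes. They passed that filter only through R153A, so the count is no separate support, and in effect it is 1 observation of the shared exons.

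The beta cluster gave the only independent rows, and most of these were listed at 0. Of 22 beta members, 15 were listed at 0 in all WT libraries and 7 in all R153A libraries. Pcdhb8, Pcdhb9, Pcdhb11, Pcdhb12 and Pcdhb15 were listed at 0 in all 6. The WT libraries held 2, 4 and 5 members above 0, and the R153A libraries 10, 10 and 9. These counts did not overlap between the groups, but the same count over all low genes was not taken, so they have no background here. Of 8145 low genes 63.5% had a higher mean in R153A, and depth is unknown.

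Pcdhb22, the last beta gene, had the highest mean over the 6 libraries and the highest single value, with 0.177, 0.0768 and 0.0667 FPKM in R153A and 0, 0 and 0.0159 in WT. Pcdhb17 was listed at 0.0582, 0.0866 and 0.0273 FPKM in R153A against 0.0142, 0 and 0 in WT. Pcdhb19 was listed at 0.0107, 0.00908 and 0.0197 FPKM in R153A and at 0 in all WT libraries. Groups were apart for 5 members, all higher in R153A, namely these 3 with Pcdhb3 and Pcdhb18. That is 5 of the 17 members above 0 in any library, read against the background of 22.5%.

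The other beta rows overlapped between the groups. Pcdhb2 was the only one above 0 in every library, with 0.0489, 0.0197 and 0.0113 FPKM in WT and 0.0531, 0.0626 and 0.0323 in R153A. Pcdhb6 was listed at 0.0549, 0.0226 and 0 FPKM in R153A and at 0 in WT. Pcdhb14 was above 0 in 1 library, R153A replicate 3, at 0.0554 FPKM. Pcdhb20 went the other way, with 0, 0.0482 and 0.0147 FPKM in WT and 0 in all R153A libraries, as did Pcdhb5. Pcdhb16 was listed at 0, 0.0207 and 0 FPKM in WT against 0.00963, 0 and 0.00721 in R153A.

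A mean higher in R153A was found for 14 beta members and a lower one for 3, where 63.5% of the 8145 low genes had a higher mean in R153A. The summed beta FPKM was 0.0631, 0.104 and 0.0612 in WT and 0.430, 0.307 and 0.241 in R153A. The mean sum was 4.28 times higher in R153A, 3.09 times without Pcdhb22 and 2.35 times under quantile normalization. With no filter on low values, 17 beta members were tested and 2 were called higher, Pcdhb22 (log2 fold change 0.14, SE 0.0394, limma adjusted p = 0.0344) and Pcdhb17 (0.07, SE 0.0230, limma adjusted p = 0.0465). None was called lower, where 13.4% of all genes were, and the same 2 had an unadjusted p under 0.05. In that fit 26.9% of 20504 genes were called higher, a larger share than 2 of 17. A change of most single beta genes was not detectable at these levels.

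**Figure D3:**
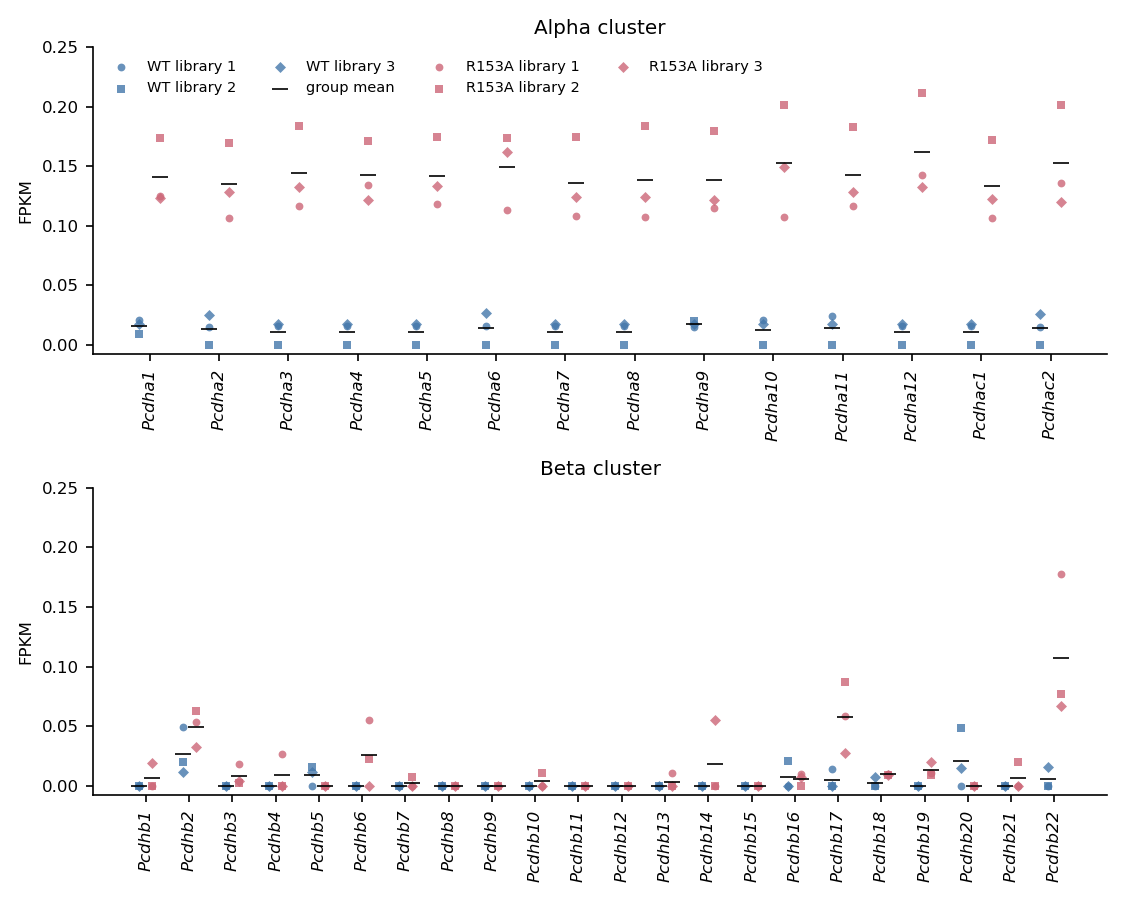
FPKM (vertical axes, linear, same range in both panels) of the 14 alpha members, above, and the 22 beta members, below, with 1 point per library and a bar at each group mean. Every alpha row shows R153A points of 0.106 or more above WT points of 0.0263 or less, while most beta rows lie at or near 0 and Pcdhb22 reaches 0.177 in 1 R153A library.

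Genes beside the clusters were followed in their order along the chromosome. Of 22 neighbours listed 21 were in the table and 19 were tested, of which 8 rose, 3 fell and 8 were not called, beside 37.5% of all genes tested called higher and 22.3% lower. Under median-ratio scaling 5 rose and 5 fell. The median log2 fold change of the 19 was 0.12, against 0.07 for all genes tested. Taf7, a subunit of the general transcription factor TFIID, lies between the beta and gamma clusters and was listed at 25.8, 26.8 and 25.2 FPKM in WT against 22.9, 24.1 and 24.8 in R153A. It was not called (log2 fold change -0.11, SE 0.0525, limma adjusted p = 0.0883), though its groups were apart, and it was called lower in 3 of 16 alternatives, under median-ratio, TPM and quantile scaling, with a lowest limma adjusted p of 0.00487. Diap1, an actin nucleator just past the gamma cluster, fell from 30.5 ± 1.59 to 23.7 ± 0.732 FPKM (SD, n = 3, log2 fold change -0.35, limma adjusted p = 2.2e-04). The tested genes listed on either side of the gamma rows thus had lower means in R153A, and the gamma rows between them had higher means.

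Farther out, Dnd1 and Arap3 changed at least as much as the gamma rows, and Slc35a4 changed less. Dnd1, an RNA-binding protein of germ cells on the alpha side, rose from 3.94 ± 0.335 to 11.1 ± 0.649 FPKM, 2.81-fold. Slc35a4, a solute carrier gene on the same side, rose from 13.6 ± 1.03 to 18.8 ± 0.626 FPKM (log2 fold change 0.44). Arap3, a GTPase-activating protein gene on the gamma side, was listed at 0.920, 0.972 and 0.875 FPKM in WT against 3.72, 3.66 and 3.41 in R153A, and passed the filter only through R153A. Ik averaged 41.9 ± 0.982 FPKM in WT against 44.8 ± 0.796 in R153A and Ndfip1 78.3 ± 2.87 and 76.4 ± 2.89, neither of them called.

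**Figure D4:**
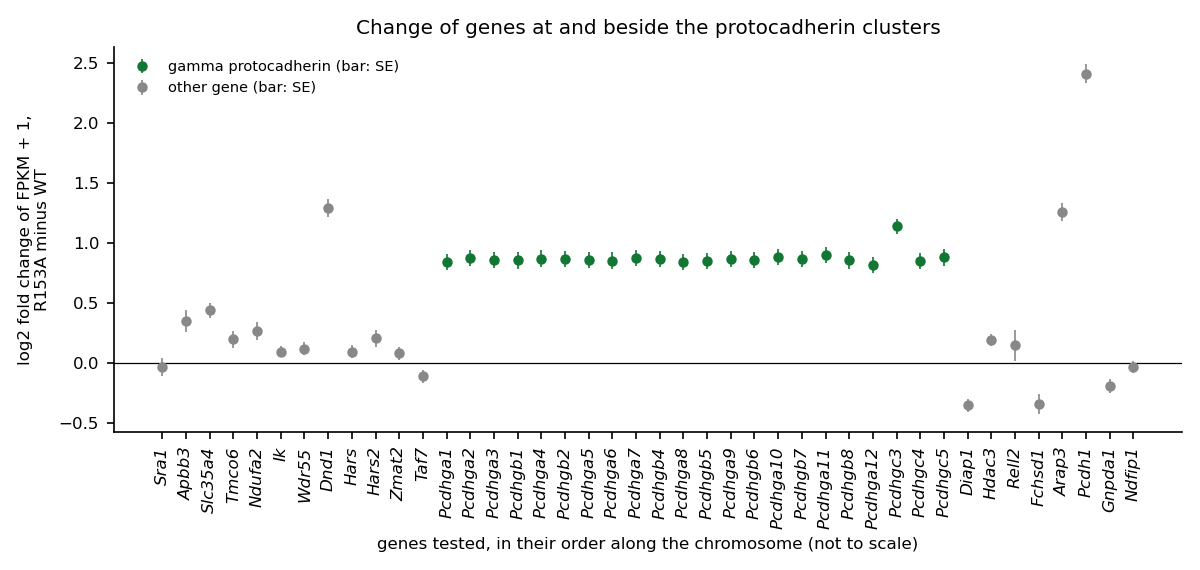
Log2 fold change of FPKM + 1, R153A minus WT (vertical axis, bars are SE), of the genes tested at and beside the clusters, placed in their order along the chromosome and not to scale. The gamma members form a level run near 0.86 with Pcdhgc3 at 1.14, and Taf7 and Diap1 on either side lie below 0.

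Pcdh1 stood out among protocadherins outside the clusters. This non-clustered protocadherin lies farther along the same chromosome, between Arap3 and Gnpda1, and was listed at 1.03, 0.965 and 0.841 FPKM in WT against 9.83, 8.84 and 9.31 in R153A. Its mean was 9.85-fold higher (log2 fold change 2.41, SE 0.0760, limma adjusted p = 1.2e-09). Of 12 non-clustered protocadherins Pcdh1 alone reached the filter. The other 11 stayed under 1 FPKM in every library, and over the 12 the groups were apart for 7, all higher in R153A, where 32.9% of genes above 0 in any library were apart in that direction. As levels per length, Pcdh1 and Pcdhgc3 averaged 0.947 ± 0.0974 and 4.56 ± 0.239 FPKM in WT and 9.33 ± 0.4995 and 11.2 ± 0.140 in R153A (SD, n = 3), where the Pcdhgc3 value includes the exons it shares.

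Genes that bind, loop or silence the clusters moved in both directions. Of 31 such regulators tested, 10 rose, 12 fell and 9 were not called, beside 37.5% of all genes tested called higher and 22.3% lower. Their median log2 fold change was -0.07. The split was 7 and 16 under median-ratio scaling and 9 and 14 under quantile normalization. Dnmt3b, a de novo DNA methyltransferase, was listed at 48.8, 54.4 and 50.4 FPKM in WT against 124, 116 and 128 in R153A, 2.40-fold higher (log2 fold change 1.25, SE 0.0563, limma adjusted p = 1.3e-08). Smchd1, a non-canonical SMC protein that represses the clusters, was listed at 9.71, 10.3 and 9.97 FPKM in WT against 15.8, 15.5 and 15.8 in R153A (log2 fold change 0.60, SE 0.0546, limma adjusted p = 3.0e-06). Lrif1, a partner of SMCHD1, rose from 2.42 ± 0.770 to 6.16 ± 0.941 FPKM.

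Among architectural proteins, subunits of cohesin moved in both directions. Stag2, a variable subunit, was listed at 14.3, 16.6 and 15.7 FPKM in WT against 25.3, 29.4 and 31.6 in R153A (log2 fold change 0.84, SE 0.0809, limma adjusted p = 4.8e-06). Stag1, the other variable subunit listed, fell from 12.6 ± 0.895 to 11.1 ± 0.381 FPKM (log2 fold change -0.17, limma adjusted p = 0.0433), a call that ended in 8 of 16 alternatives, with adjusted p up to 0.135. Rad21, a core subunit, fell from 72.7 ± 1.599 to 63.6 ± 0.612 FPKM (log2 fold change -0.19, limma adjusted p = 0.00312). Ctcf was listed at 31.2, 32.5 and 30.3 FPKM in WT against 27.7, 26.2 and 29.9 in R153A. It was called lower (limma adjusted p = 0.0332), a call that ended in 7 of 16 alternatives, with adjusted p up to 0.143. Rest, a repressor of neuronal genes that also binds alpha promoters, fell from 39.5 ± 1.94 to 24.9 ± 2.03 FPKM, 1.58-fold lower. Uhrf1, which guides maintenance methylation, averaged 76.2 ± 1.84 FPKM in WT against 75.2 ± 2.43 in R153A, and Cbx3, a heterochromatin protein, 84.5 ± 4.75 and 83.9 ± 2.27. Neither was called, though Uhrf1 was called lower under median-ratio scaling (limma adjusted p = 0.0308).

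Of 25 genes that act with or on protocadherin proteins 22 were tested, of which 14 rose and 8 were not called, against 10 that rose and 4 that fell under median-ratio scaling. Over all genes tested 37.5% were called higher and 22.3% lower. Under quantile normalization 12 rose and 3 fell. Their median log2 fold change was 0.21, against 0.07 for all genes tested. Marcks, a protein kinase C substrate downstream of gamma protocadherins in dendrite growth, was listed at 7.89, 7.61 and 8.199 FPKM in WT against 19.8, 20.4 and 18.7 in R153A, 2.49-fold higher (log2 fold change 1.22, SE 0.0591, limma adjusted p = 2.3e-08). Cyfip2, a subunit of the WAVE complex that protocadherin tails can bind, rose from 3.09 ± 0.164 to 7.46 ± 0.340 FPKM, 2.42-fold. Nlgn2, a synaptic adhesion gene of the neuroligin family, rose from 4.88 ± 0.131 to 7.003 ± 0.535 FPKM, and Ncstn, a subunit of the gamma-secretase that cleaves protocadherins, from 14.3 ± 0.949 to 19.6 ± 0.332. The WAVE subunits Wasf2 and Brk1 were not called, at 27.1 ± 0.405 and 51.0 ± 1.98 FPKM in WT and 27.4 ± 1.24 and 49.0 ± 1.10 in R153A.

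**Figure D5:**
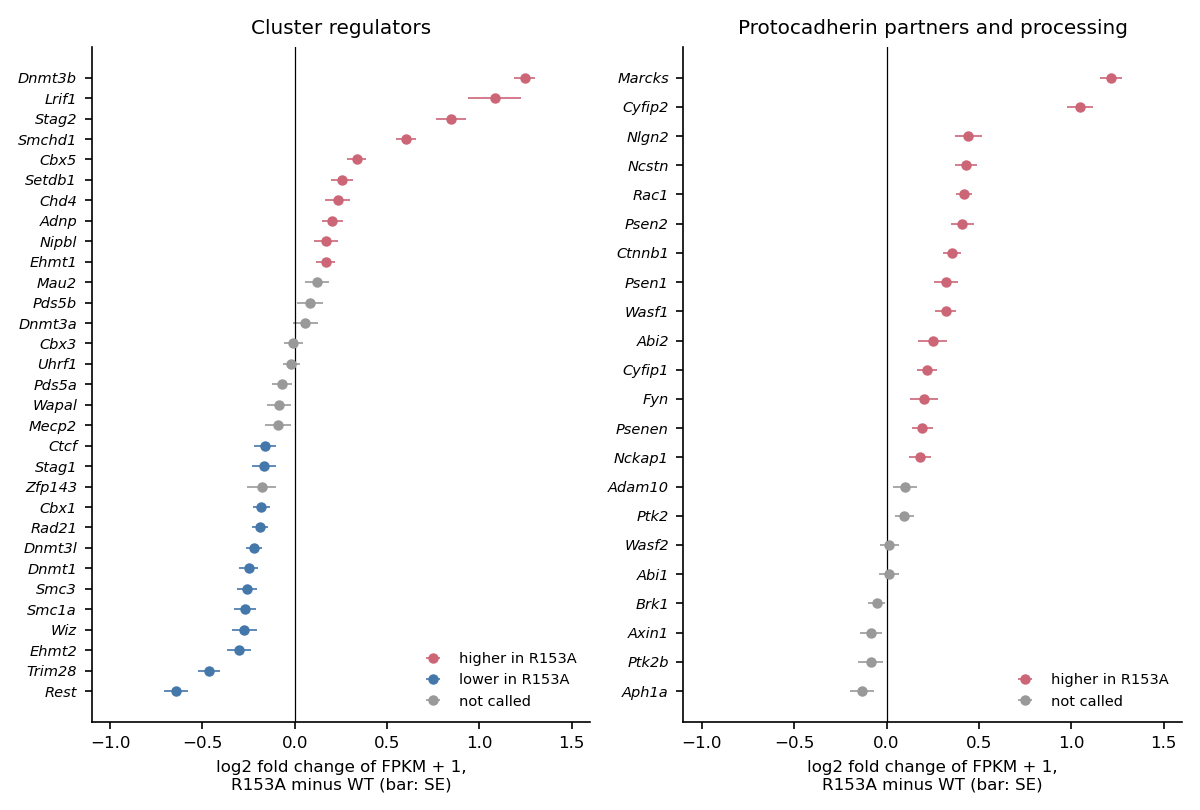
Log2 fold change of FPKM + 1, R153A minus WT (horizontal axes, bars are SE), of the 31 regulators tested, left, and the 22 partner and processing genes tested, right, coloured by call. Regulators lie on both sides of 0 with Dnmt3b highest and Rest lowest, and 14 of the partners are called higher, or 10 higher and 4 lower under median-ratio scaling.

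Markers of cell types were read beside these results. All 10 pluripotent cell markers were above 1 FPKM in every library, but 8 of them fell and 2 were not called, beside 22.3% of all genes tested called lower and 37.5% higher. Their summed FPKM, of which Dppa5a made up the largest share, lay between 4339 and 5103 in WT and between 2308 and 2410 in R153A. Sox2 stood at 207, 207 and 216 FPKM in WT libraries and at 89.0, 82.5 and 82.1 in R153A libraries. Of 16 neural and neuronal markers 8 were tested, of which 3 rose and 4 fell, among them Ncam1, which passed the filter only through WT. Over the 16 the groups were apart for 6 higher and 6 lower in R153A. Among genes above 0 in any library 32.9% were apart and higher, while the share apart and lower was not taken. The list's sum, of which Stmn2 made up the largest share, lay between 141 and 149 FPKM in WT and between 102 and 105 in R153A. Tubb3, a neuronal tubulin, was lower in R153A, Nes, the progenitor filament nestin, was higher, and the neuronal gene Dcx stayed at or under 0.00720 FPKM in all 6 libraries. Of 10 fibroblast markers 3 were tested and 2 of these rose, Col1a1 and Col1a2, the second of which passed the filter only through R153A. The sums of the 10 were 5.74 to 6.61 FPKM in WT and 9.08 to 9.55 in R153A. For 6 of the 10 the groups were apart, all higher in R153A. Of all genes above 0 in any library 32.9% were apart in that direction. Lum was the only fibroblast marker listed at 0 in all WT libraries. Of 8 primitive endoderm markers 3 were tested. Foxa2 rose and passed the filter only through R153A, and Sox7 fell and passed it only through WT, so neither call is separate support. The sums of the 8 were 3.46 to 4.65 FPKM in WT and 5.73 to 6.52 in R153A. Foxa2 made up the largest share of the R153A sums, with a mean of 3.40 FPKM against 0.176 in WT. Gata4 averaged 1.48 FPKM in both groups, Gata6 was level and Sox17 was lower in R153A. Over the 8 the groups were apart for 3 higher and 2 lower in R153A, beside the same 32.9% for higher and no share taken for lower. The part of these shifts in the protocadherin values was not tested.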

How the data were processed

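Per the labels, polyadenylated RNA of 3 WT and 3 R153A libraries was sequenced. The submitters' processing notes name the build mm9 and the tools edgeR 3.26.8, HTSeq 0.11.2, Bowtie2 2.3.4.3 and SAMtools 1.9, without saying what each did. The authors deposited 1 table of FPKM values, used here without rescaling. The tool that gave FPKM, the annotation and the use of strand were not given in the sources used here, and genes that overlap may share fragments. No counts could be recovered, so limma 3.58.1 (R 4.3.3, with a trend of variance on mean) was run on log2(FPKM + 1) and tested on simulated data. Folds of single genes are ratios of mean FPKM where every library reached 0.1 FPKM, a minimum not applied to summed FPKM. Alternatives were no filter or a filter of 0.1 FPKM, pseudocounts of 0.1 and 0.5, median-ratio, TPM and quantile scaling, no trend, a replicate block and leaving out each library.

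The members and the 8 gene lists were chosen with earlier results of these data known. The rule for naming genes took every member past the filter, the 8 highest members of each cluster, Nanog, Wdr5, and, for regulators, partners, non-clustered protocadherins and neighbours, the 4 largest called changes and the 2 highest genes not called. Not all of these are given singly. Most gamma members, Pcdha3 and Pcdha11 are given only within ranges, and Pcdhga11 and Pcdhga12 were picked as the ends of the gamma range. Pcdha4-g, Pcdha6-g and Pcdha7-g were set apart, and the ratio of Pcdhgc3 to the other gamma rows, the product of FPKM and length, the shared windows, the beta sum without Pcdhb22 and the naming of other genes (such as Taf7, Ctcf, Stag1, Rad21, Smchd1 and cell type markers) were chosen after their values were seen. Transcript lengths are of GENCODE M21, not of the authors' models. Python 3.11.15 and matplotlib 3.10.9 drew the figures.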

Additional observations from a re-analysis of the deposited data

How the results depend on the processing

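All 22 gamma members were called higher in 16 of 16 alternatives, with log2 fold changes between 0.68 and 1.28 and limma adjusted p up to 1.2e-04. As these rows share fragments, that is in effect 1 signal refitted, not separate support from each member. In the main fit 37.5% of all genes tested were called higher. The count of beta members called higher went from 0 to 2 with no filter on low values. The count of alpha members called higher went from 0 to 14 with no filter, with a filter of 0.1 FPKM, and with that filter and a pseudocount of 0.1, since the main filter tests neither cluster. Quantile normalization lowered the ratio of summed FPKM to 1.83 in gamma, 1.80 in the alpha-gamma models and 2.35 in beta; the cause was not tested. Without 1 library each, the alpha ratio ran from 7.93 to 15.0, the beta ratio from 3.598 to 5.24, and the log2 difference of Pcdhgc3 from the other gamma rows from 0.28 to 0.30. Cbx3, Uhrf1 and Wasf2, which were not called, changed sign without a call. Cbx3 stood at a log2 fold change of 0.013 without R153A replicate 1, 0.0098 without WT replicate 1 and 0.021 without WT replicate 2. Leaving out WT replicate 3 gave -0.055, and median-ratio scaling -0.0914. Uhrf1 stood at 0.0064 without R153A replicate 2. It was -0.0397 without WT replicate 1 and -0.103 under median-ratio scaling, where it was called lower. Wasf2 stood at -0.066 under median-ratio scaling, -0.0083 after rescaling to TPM, -0.028 under quantile normalization and -0.0066 without R153A replicate 3, and reached 0.0519 without R153A replicate 2. Taf7 was called lower under median-ratio, TPM and quantile scaling. Brk1 and Ndfip1 were called lower under median-ratio scaling (limma adjusted p = 0.0377 and 0.0406), and Ik was called higher without WT replicate 2 (limma adjusted p = 0.0455). Deviations of WT and R153A libraries of the same number had correlations of -0.0487, -0.0095 and 0.0600, so no pairing by number was visible. Whether libraries of the same number were prepared together cannot be told from this. With the replicate block 4316 genes were called higher and 2560 lower, against 4428 and 2634 without it, with the same 22 gamma members called. Depth is unknown, so what counting error allows at the alpha and beta levels cannot be given.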
